A study of Mus musculus with 4 samples.

Results

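Eya1 ChIP-seq peaks were examined at the ion channel genes of the mouse, meaning the protein-coding genes of GENCODE release M21 (mouse genome build mm10) whose symbols begin with Kcn, Cacn, Scn or Hcn, the last pair followed by a digit. The rule found 138 of 21951 protein-coding genes. They comprised 94 potassium channel genes (Kcn), 26 calcium channel genes (Cacn), 14 sodium channel genes (Scn) and 4 genes of hyperpolarization-activated, cyclic nucleotide-gated channels (Hcn). Voltage-gated pores made up only some of the set. It also took in 15 inward rectifier genes (Kcnj), 14 two-pore potassium channel genes (Kcnk), 12 genes of calcium- or sodium-activated potassium channels and auxiliary subunits that form no pore. The set is therefore called ion channel genes here.

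The chromatin came from kidneys of Eya1 HA-FLAG knockin mouse embryos at E13.5, with 80 kidneys pooled for each assay. Both Eya1 samples had the same genotype and stage and were immunoprecipitated with anti-FLAG beads, and no other genotype or treatment was compared. The lists held similar numbers of peaks, with a median width of 1069 bp in replicate 1 and of 188 bp in replicate 2. The lists held positions only, with no height, score or read depth, and no peak list of the input or IgG control was used here, so strength of occupancy and the background at any single site could not be given. Whole kidneys were used, and peak lists carry no expression values, so neither the cell type behind a peak nor the tissue label could be checked against marker genes.

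Eya1 is a transcriptional coactivator with phosphatase activity that has no known DNA-binding domain and works with partners such as homeodomain proteins of the sine oculis family, and it is required for the nephron progenitors of the kidney. REST, also called NRSF, is a zinc-finger repressor that binds an element named RE1 and keeps many neuronal genes silent in cells that are not neurons, and ion channel genes are among its best known targets. Potassium channels set the resting potential and end the action potential, sodium channels start it, calcium channels couple it to secretion and contraction, and HCN channels carry the pacemaker current. REST itself was not measured here. A match to RE1 below is a property of the sequence, not evidence that REST was bound.

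Peaks of the 2 lists were merged where they overlapped by at least 1 bp, which gave 5493 intervals, 2424 of them covered by both lists, 1847 by replicate 1 only and 1222 by replicate 2 only. An interval within 1 kb of any annotated transcription start site (TSS) of a gene was called a promoter interval of that gene, and any other interval overlapping the gene was called a gene-body interval. Ion channel genes had fewer promoter intervals and more gene-body intervals than protein-coding genes in general. A promoter interval was found at 16 of 138 members (11.6%, exact 95% interval 6.77 to 18.1), against 23.5% of all protein-coding genes. A gene-body interval was found at 15 members (10.9%, 6.21 to 17.3), against 1.81% of all protein-coding genes. In total 29 members had an interval of either kind (21.01%, 14.5 to 28.8), against 24.9% of all protein-coding genes, and the other 109 had none. Cacna1a and Cacng2 had both kinds. These intervals cover counting error over genes only, and genes of a family or a cluster are not independent draws.

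The separate lists gave the same direction for both kinds of interval, but the gene-body count depended on replicate 2. In replicate 1, 13 members had a promoter peak (9.42%, 5.11 to 15.6), against 20.2% of all protein-coding genes. In replicate 2 the number was 12 (8.70%, 4.57 to 14.7), against 14.7%, and the upper bound of the interval equalled that background to 3 digits. Promoter intervals covered by both lists were present at 9 members (6.52%, 3.03 to 12.02), against 11.4%. For gene bodies, replicate 1 gave 6 members (4.35%, 1.61 to 9.22) against 1.07% of all protein-coding genes, and replicate 2 gave 15 members (10.9%) against 1.58%. Gene-body intervals covered by both lists were found at 6 members (4.35%), against 0.692%. The 6 genes with a gene-body peak in replicate 1 were Cacna1a, Cacng2, Hcn2, Hcn4, Kcnip1 and Kcnip2, and all were also among the 15 of replicate 2.

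Ion channel genes are long, and a long gene offers more room for a peak. The median length was 41.98 kb for the members and 17.4 kb for all protein-coding genes, and it was 105 kb for calcium, 103 kb for sodium, 30.8 kb for potassium and 29.6 kb for HCN genes. The share of other genes was therefore averaged over length bins with the members' numbers in each bin as weights. Other genes of the members' lengths had a promoter interval in 26.4% of cases, which is 14.8 percentage points above the members, and this share lay outside the members' interval. They had a gene-body interval in 3.36% of cases, 7.51 points below the members and again outside the members' interval. In replicate 1 alone the length-weighted gene-body share was 1.85% against 4.35% of the members, a gap of 2.49 points, and this share lay inside the members' interval. In replicate 2 alone it was 3.002% against 10.9%, a gap of 7.87 points.

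**Figure D1:**
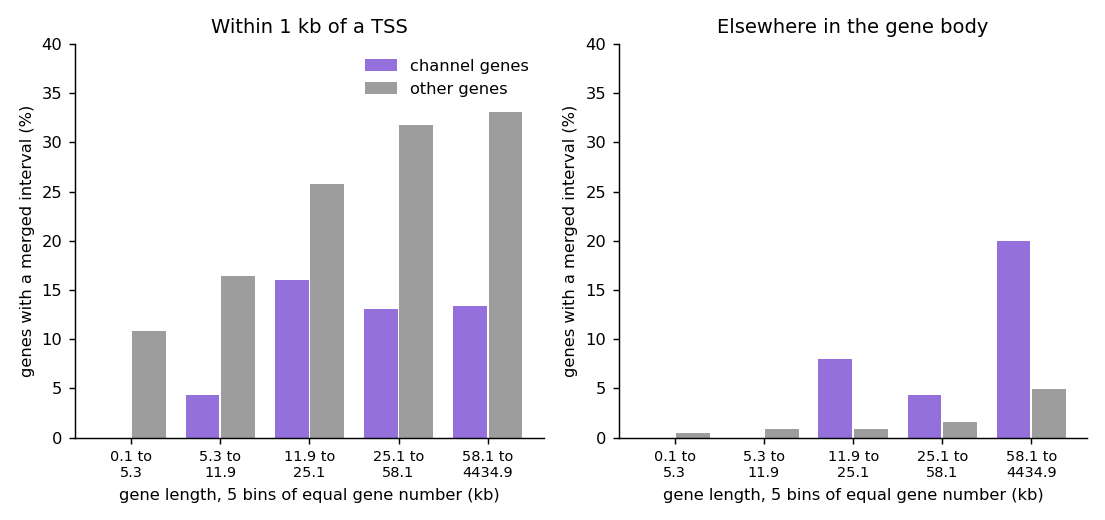
Percentage of genes with a merged Eya1 interval (y axis) by gene length in kb, in 5 bins of equal gene number (x axis), for ion channel genes and all other protein-coding genes, within 1 kb of a TSS (left) and elsewhere in the gene body (right). In the longest bin 20% of 60 channel genes had a gene-body interval against 4.99% of other genes, while promoter intervals were less frequent at channel genes in every bin.

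Most members with a gene-body interval were long. Of the 60 members in the longest of 5 bins of equal gene number, 58.1 kb and above, 12 had a gene-body interval (20%), against 4.99% of 4331 other genes. Among the 25 members between 11.9 and 25.1 kb it was 2, Hcn2 and Kcnip2 (8%, against 0.848% of other genes), and among the 23 members of the next bin, up to 58.1 kb, it was Hcn4 alone (4.35% against 1.63%). None of the 7 and 23 members of the shorter bins had one. The Hcn2 and Kcnip2 intervals were near the 1-kb limit, with their nearest edges 1134 and 1481 bp from a TSS. Promoter intervals went the other way in every bin, from 0 of 7 members against 10.8% of other genes in the shortest to 8 of 60 (13.3%) against 33.0% in the longest.

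Potassium, calcium and sodium channel genes spanned a wide range, with few genes in the smaller classes. Potassium channel genes had a promoter interval in 8 of 94 cases (8.51%, 3.75 to 16.1), below the 25.1% of other genes of their lengths. Their gene-body share was 6 of 94 (6.38%, 2.38 to 13.4), and the interval included the 2.97% of other genes of their lengths. Calcium channel genes had a promoter interval in 4 of 26 cases (15.4%, 4.36 to 34.9) against 29.1%, and a gene-body interval in 5 (19.2%, 6.55 to 39.4) against 4.61%. Sodium channel genes had 3 of 14 with a promoter interval (21.4%, 4.66 to 50.8) against 30.1%, and 1 with a gene-body interval (7.14%, 0.181 to 33.9) against 3.80%. The gene-body counts of the classes depended on replicate 2. Replicate 1, and likewise the intervals covered by both lists, gave 2 potassium, 2 calcium and 0 of 14 sodium genes (exact interval up to 23.2%). The calcium share of replicate 1 (7.69%, 0.946 to 25.1) then had an interval that included the 2.48% of other genes of the same lengths. Replicate 2 alone gave the gene-body counts of the merged intervals. The intervals of the 3 classes overlapped, and the differences between classes were not tested.

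**Figure D2:**
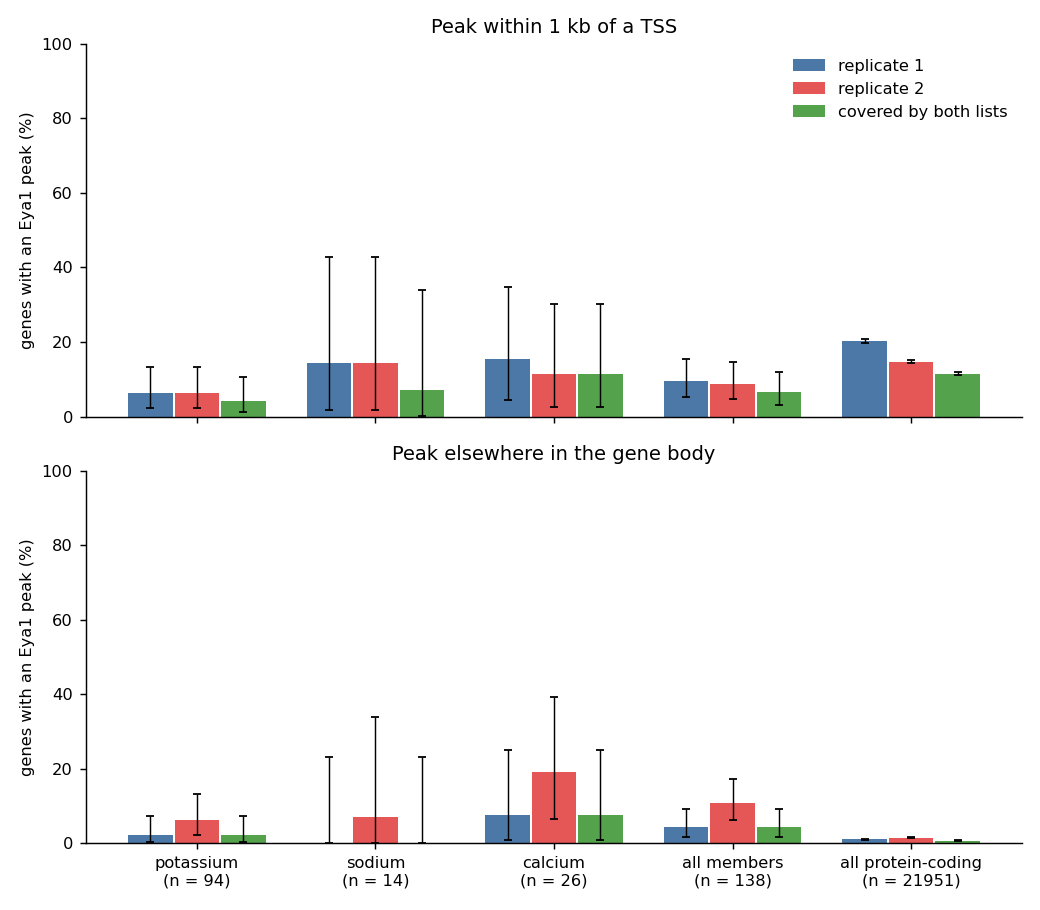
Percentage of genes with an Eya1 peak (y axis) within 1 kb of a TSS (top) and elsewhere in the gene body (bottom), by channel class, for all 138 members and for all protein-coding genes (x axis), with bars for replicate 1, replicate 2 and intervals covered by both lists. Error bars are exact 95% intervals over genes, and they are wide for the 14 sodium and 26 calcium channel genes.

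The RE1 search used the RE1 consensus of 17 bp on both strands with at most 2 mismatches, over the whole interval. Of the 18 gene-body intervals of members, 17 held a match (94.4%, exact 95% interval 72.7 to 99.9), against 255 of 472 gene-body intervals of all protein-coding genes (54.03%). Flanking windows of equal width held a match in 1 of 36 cases (2.78%) beside the members' gene-body intervals and in 55 of 944 (5.83%) beside those of all protein-coding genes. Of the 16 promoter intervals of members, 12 held a match (75%, 47.6 to 92.7), against 656 of 4758 promoter intervals of all protein-coding genes (13.8%) and 6 of 32 flanking windows of the members (18.8%). Windows beside the promoter intervals of all protein-coding genes held a match less often, in 806 of 9516 cases (8.47%). The stricter limit of 1 mismatch left 15 of the 18 gene-body intervals (83.3%, against 37.7% of those of all protein-coding genes) and 7 of the 16 promoter intervals (43.8%, against 3.15%). Restricting the search to 200 bp around the midpoint of the merged interval left 15 of 18 in gene bodies (83.3%, against 43.9% for all protein-coding genes) but only 3 of 16 at promoters (18.8%, against 4.12%), the same share as in the full-width flanking windows. Around the midpoints of the replicate 2 promoter peaks such a window held a match in 11 of 12 cases (91.7%, against 6.003%), and around those of replicate 1 in 1 of 13 (7.69%, against 3.11%).

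Counted by gene, 25 members had a match in a promoter or gene-body interval (18.1%, 12.1 to 25.6), against 4.32% of all protein-coding genes and 5.90% of other genes of the members' lengths. At promoters it was 12 members (8.70%) against 3.38% of all protein-coding genes, and in gene bodies 14 (10.1%) against 0.993%. By class these were 10 of 94 potassium genes (10.6%, 5.22 to 18.7), 7 of 26 calcium genes (26.9%, 11.6 to 47.8) and 4 of 14 sodium genes (28.6%, 8.39 to 58.1). Other genes of the same lengths had a match in 5.51%, 7.15% and 6.26% of cases, and in the merged intervals only the potassium genes' interval included that share. The 2 lists differed here. In replicate 1, with 6 potassium, 4 calcium and 2 sodium genes, each class's interval included the share of other genes of its lengths, 4.08%, 4.999% and 4.75%. In replicate 2, with 10, 7 and 3 genes, none of the 3 did (potassium 5.22 to 18.7 against 2.99%, calcium 11.6 to 47.8 against 4.21%, sodium 4.66 to 50.8 against 3.22%). Every member interval covered by both lists held a match, 9 at promoters and 7 in gene bodies. For all protein-coding genes, 17.8% of such promoter intervals and 60.3% of such gene-body intervals held one. Of the intervals in replicate 2 only, 10 of 11 in gene bodies and 2 of 3 at promoters held one. The shares for all protein-coding genes were 70.0% and 9.03%. Replicate 1 had no gene-body interval of its own, and 1 of its 4 own promoter intervals held a match, against 10.8% for all protein-coding genes.

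**Figure D3:**
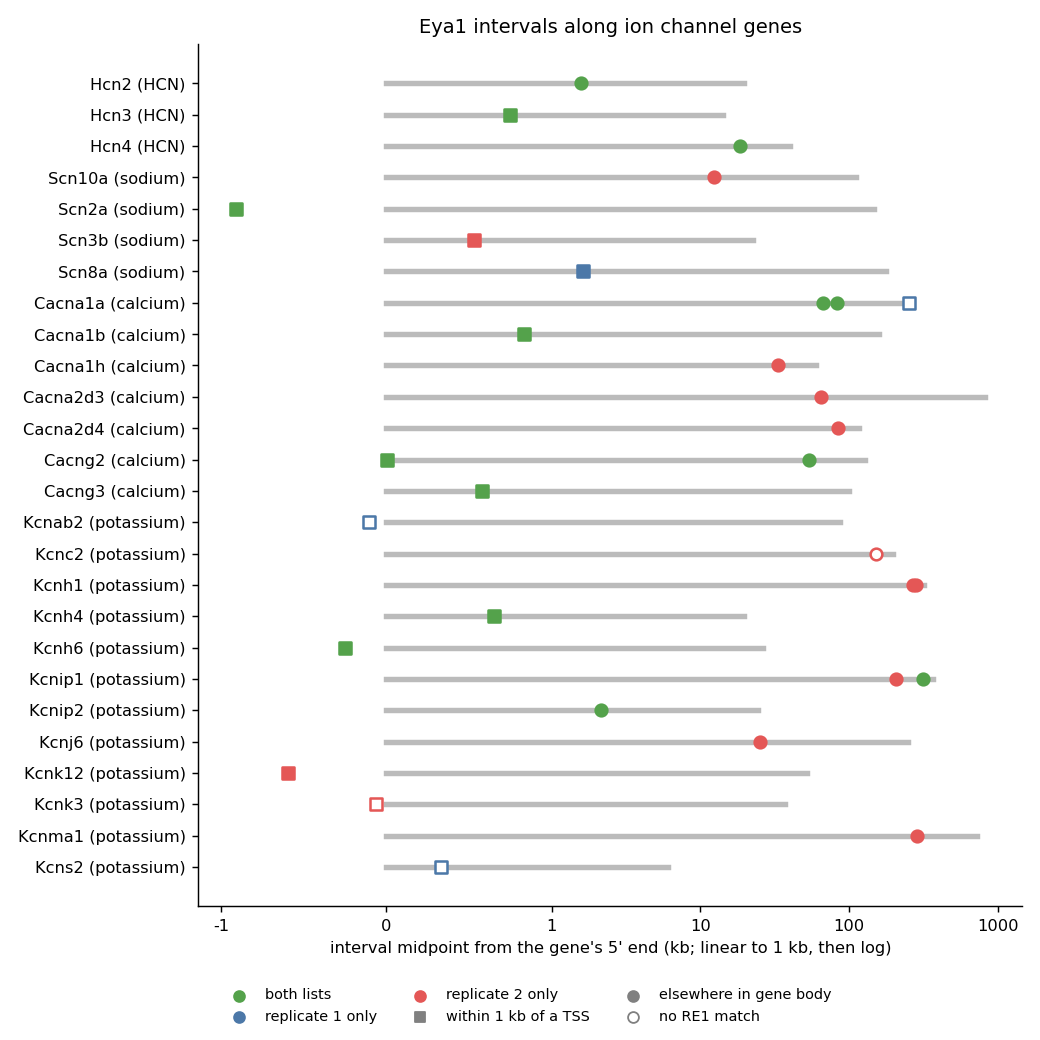
Positions of 17 gene-body and 14 promoter Eya1 intervals along 26 of the 29 ion channel genes that had one, with the midpoint's distance from the gene's annotated start in kb on the x axis (linear to 1 kb, then logarithmic) and grey bars for the genes. Colour gives the list, squares promoter and circles gene-body intervals, and the 5 open symbols (Cacna1a, Kcnab2, Kcnc2, Kcnk3 and Kcns2) have no RE1 match.

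All 18 gene-body intervals lay in introns, at a median of 23.8 kb (range 1.58 to 163 kb) from the nearest annotated TSS of the gene, and none was within 1 kb of the TSS of another gene. The best matches of the 17 with RE1 had 0 mismatches in 6 cases, 1 in 9 and 2 in 2. Best matches with at most 1 mismatch are printed below, because they are what these intervals share. Coordinates are those of the 17-bp match on mm10, the sequence is read 5′ to 3′ on the strand given with 6 flanking bases on each side, capitals mark the bases that match the consensus, and a base in lower case inside the match is a mismatch. The 6 gene-body matches with no mismatch were as follows.
Cacna1a (chr8:84454747-84454763, minus strand): gggacaTTCAGCACCATGGCCAGcagcca
Cacna1h (chr17:25400638-25400654, minus strand): aactgcTTCAGCACCACGGACAGcgaccg
Cacna2d3 (chr14:29657207-29657223, minus strand): ctcctgTTCAGCACCAAGGACAGcaacag
Cacng2 (chr15:78066700-78066716, minus strand): gcctgcTTCAGCACCTTGGAGAGctcctt
Hcn4 (chr9:58841863-58841879, minus strand): attgtgTTCAGCACCATGGACAGtgtccg
Scn10a (chr9:119706902-119706918, minus strand): ttgaggTTCAGCACCACGGACAGagcaga

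Of the 9 gene-body matches with 1 mismatch, 8 are printed, and a pair of them is in Kcnh1.
Cacna1a (chr8:84471460-84471476, plus strand): agccgtTTCAGCACgCTGGACAGcaccat
Hcn2 (chr10:79718160-79718176, plus strand): tgaagtTTCAGgACCACGGACAGctccag
Kcnh1 (chr1:192457722-192457738, minus strand): gaatgggTCAGCACCCTGGACAGctccct
Kcnh1 (chr1:192472563-192472579, minus strand): taaaccTTCAGgACCATGGACAGttctga
Kcnip1 (chr11:33680276-33680292, plus strand): ggcatgTTCAGtACCACGGACAGcaccag
Kcnip2 (chr19:45813955-45813971, plus strand): gcacgcTTCAGCACCGTGGACAacgactc
Kcnj6 (chr16:94972671-94972687, minus strand): accaagTTCAGgACCAGAGACAGcgccca
Kcnma1 (chr14:23729572-23729588, minus strand): ttttctTTCAGgACCACGGACAGggccta

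Promoter intervals with at most 1 mismatch gave 7 further best matches, 3 of them without a mismatch (Hcn3, Kcnh4 and Scn2a). Cacng2 held 2 promoter matches with 1 mismatch, and the one nearer the midpoint of the replicate 2 peak is printed.
Hcn3 (chr3:89159337-89159353, plus strand): tccgccTTCAGCACCACGGACAGcaaaca
Kcnh4 (chr11:100759011-100759027, minus strand): ccgaagTTCAGCACCCTGGACAGccgcac
Scn2a (chr2:65619964-65619980, plus strand): ttggctTTCAGCACCACGGACAGcaccag
Cacna1b (chr2:24762083-24762099, plus strand): gacgccgTCAGCACCACGGACAGctgcct
Cacng2 (chr15:78119835-78119851, minus strand): gtccgtTTCAGCACCACGGCGAtgctgta
Kcnk12 (chr17:87798584-87798600, plus strand): gccggcgTCAGCACCGCGGACAGcgcatc
Scn3b (chr9:40269744-40269760, minus strand): gcttggcTCAGCACCACGGACAGtagcct

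The same 17 bases occurred in members of 3 classes. TTCAGCACCACGGACAG was the best match of Cacna1h, Hcn3, Scn10a and Scn2a, and 43 of its 47 copies in the genome lay in an Eya1 peak (91.5%). TTCAGGACCACGGACAG, which has 1 mismatch, was the best match of Hcn2 and Kcnma1, and 16 of its 16 genomic copies lay in a peak. These shares include the members' own copies, which were chosen because they lay in a peak. For the best matches of other members the share ranged from 2 of 4 copies (Kcnj6) to all copies, such as 4 of 4 for a match of Kcnip1. The bases beside the shared element differed between the genes, as the lower-case flanks above show. Of the best matches of all 29 intervals, 14 lay on the strand of the gene and 15 on the opposite strand, and none was in repeat-masked sequence.

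The match lay close to the centre of the peak in replicate 2. Over the 28 best matches inside a replicate 2 peak the median distance to the peak midpoint was 9.25 bp (range 0.5 to 85.5), and 23 were within 25 bp. Over the 17 inside a replicate 1 peak the median was 101.5 bp (range 31.5 to 273.5), and 0 were within 25 bp. Where matches of an interval tied, the one of lower coordinate was taken, and with the tied match nearest to the midpoint instead the replicate 1 median was 100.5 bp, with 1 within 25 bp, at 17.5 bp in the Cacng2 promoter. In gene bodies the median was 57.5 bp over 7 matches in replicate 1 and 7 bp over 17 in replicate 2, and at promoters it was 114.75 bp over 10 and 15.5 bp over 11. As a share of the width of the peak, the median distance was 19.0% in replicate 1 and 5.35% in replicate 2.

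**Figure D4:**
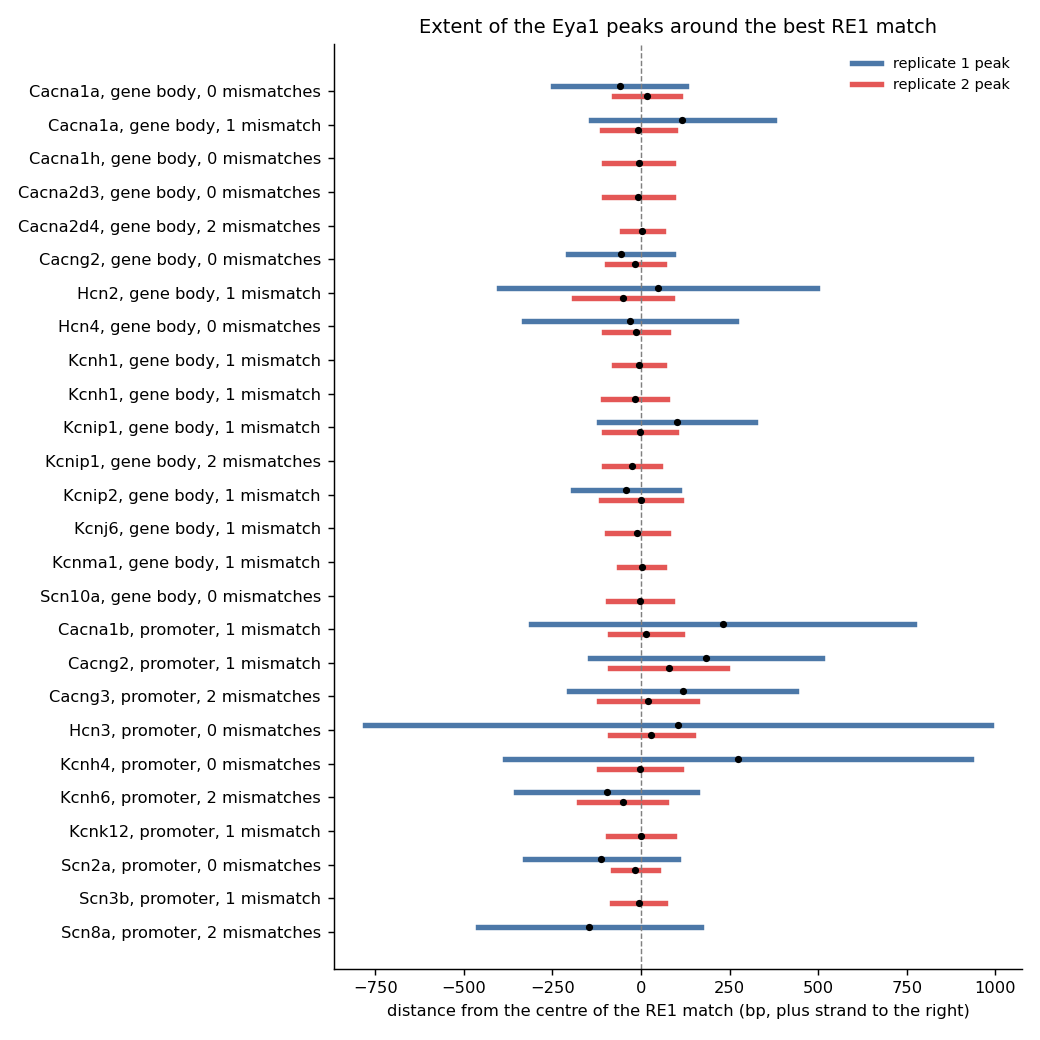
Extent of the replicate 1 and replicate 2 peaks (coloured lines) around the best RE1 match of 26 of the 29 intervals, with the distance from the centre of the match in bp on the x axis and black dots at the peak midpoints. Over all 29 intervals, replicate 2 midpoints lay at a median of 9.25 bp from the match and replicate 1 midpoints at 101.5 bp.

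HCN channels open on hyperpolarization and are tuned by cyclic nucleotides, and Hcn2, Hcn3 and Hcn4 each had an interval in both lists with an RE1 match of at most 1 mismatch. At Hcn4, a main pacemaker channel of the sinoatrial node, the peak was 598 bp wide in replicate 1 and 180 bp wide in replicate 2 and lay 18.4 kb from the gene's start. At Hcn2 it was 897 bp wide in replicate 1 and 279 bp wide in replicate 2, 1.58 kb from the start. At Hcn3 both lists covered the promoter, with a peak of 1768 bp in replicate 1 and of 235 bp in replicate 2. Hcn2 lay close to the limit between promoter and gene body, since the nearest edge of its interval was 1134 bp from a TSS.

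Among the 10 sodium channel pore genes, Scn2a, Scn8a and Scn10a had an interval, and among the 4 beta subunit genes, Scn3b. Together these were 4 of 14 genes (28.6%), against 24.9% of all protein-coding genes and 33.2% of other genes of their lengths. The Scn2a interval was outside the gene, at -0.911 kb from the nearest TSS, with a peak in both lists, and it held an RE1 match without mismatch at -0.799 kb from that TSS. Scn2a encodes a pore of central neurons, and its RE1 is a classic REST element. Scn10a, which encodes a pore of sensory neurons, had a single peak of 181 bp in replicate 2 in an intron 12.4 kb from its start. Scn3b had a promoter peak of 150 bp in replicate 2 only. Scn8a, which encodes a pore of the axon initial segment, had a promoter peak of 630 bp in replicate 1 only, and its match had 2 mismatches and lay 145.5 bp from the peak midpoint.

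Calcium channel pores were represented by Cacna1a, Cacna1b and Cacna1h out of 10 genes. In the whole calcium class 7 of 26 genes (26.9%) had an interval, against 24.9% of all protein-coding genes and 32.9% of other genes of their lengths. Cacna1a, the pore of presynaptic P/Q-type channels, had 2 gene-body intervals in both lists, at 66.3 and 83.1 kb from its start. The first was 377 bp wide in replicate 1 and 188 bp in replicate 2, and the second 517 and 206 bp. Cacna1a also counted as a promoter member through a replicate 1 peak of 974 bp at 99.5% of the gene's length, where a short transcript starts, and this interval held no match. Cacna1b, the pore of N-type channels, had a promoter peak in both lists, 1082 bp wide in replicate 1 and 202 bp in replicate 2. Cacna1h, a T-type pore, had a gene-body peak of 195 bp in replicate 2 only, 33.1 kb from its start.

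The auxiliary calcium channel genes with intervals belonged to the alpha2delta and gamma groups, and none of the 4 beta subunit genes had one. These groups are too small to set against the 24.9% of all protein-coding genes with an interval of either kind. Cacna2d3 had a replicate 2 peak of 195 bp in an intron, 64.7 kb from its start. Cacna2d4 had a replicate 2 peak of 117 bp at chr6:119320635-119320751, whose match had 2 mismatches, and the interval also lies in the span of the gene Lrtm2. Cacng2 and Cacng3 encode proteins that guide AMPA-type glutamate receptors to the synapse. Cacng2 had a promoter peak of 658 bp in replicate 1 and 331 bp in replicate 2 and a gene-body peak of 298 and 160 bp, 53.4 kb from its start. Its promoter interval held 4 matches on the strand of the gene, with 1, 2, 2 and 1 mismatches, whose starts were spaced by 56, 56 and 54 bp. Cacng3 had a promoter peak in both lists, of 640 bp in replicate 1 and 278 bp in replicate 2, with a match of 2 mismatches.

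Potassium channel genes had intervals in 14 of 94 cases (14.9%). This was below the 24.9% of all protein-coding genes and the 27.5% of other genes of their lengths. Of the 40 Kv pore genes 7 had one. Kcnh4 and Kcnh6, of the ether-a-go-go family, had promoter peaks in both lists, and their matches had 0 and 2 mismatches. The Kcnh4 peak was 1314 bp wide in replicate 1 and 234 bp in replicate 2, and the Kcnh6 peak 511 and 248 bp. Kcnh1, of the same family, had 2 gene-body peaks in replicate 2 only, of 140 and 181 bp, at 266.95 and 282 kb from its start. Kcnc2, a fast-repolarizing channel, had the only gene-body interval without a match, a replicate 2 peak of 131 bp at chr10:112423446-112423576. Kcns2, a silent subunit that modifies other Kv pores, had a promoter peak of 837 bp in replicate 1 only and no match.

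Of the 12 Kv auxiliary genes, Kcnip1 and Kcnip2, calcium-binding partners of the transient Kv pores, had gene-body intervals, and Kcnab2, a beta subunit, had a promoter interval. These 3 genes are too few to set against the 24.9% of all protein-coding genes with an interval of either kind. Kcnip1 had a peak of 440 bp in replicate 1 and 204 bp in replicate 2 at 313 kb from its start, and a replicate 2 peak of 158 bp at chr11:33787457-33787614 with a match of 2 mismatches. The Kcnip2 peak was 298 bp wide in replicate 1 and 226 bp in replicate 2. The Kcnab2 peak, 750 bp wide in replicate 1 only, had no match and was also within 1 kb of a TSS of Nphp4, so that it cannot be assigned to one of them.

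In the remaining potassium channel groups each count was 1 or 2 genes, too few to set against the 23.5% and 1.81% of all protein-coding genes with a promoter and a gene-body interval. Kcnma1, the pore of the large-conductance calcium-activated channel, was the only one of 12 genes of its group, with a replicate 2 peak of 128 bp in an intron 2.54 kb from the nearest TSS. Kcnj6, an inward rectifier opened by G proteins, was the only one of 15 Kcnj genes, with a replicate 2 peak of 173 bp at 25.03 kb from its start. Kcnk12 and Kcnk3 were the only ones of 14 two-pore genes, with promoter peaks of 186 and 162 bp in replicate 2 only, and the Kcnk3 peak held no match. The GC content of the 16 promoter intervals ranged from 38.1% at Scn2a to 85.8% at Kcnk3, with a median of 64.4%, and that of the 18 gene-body intervals from 40.6% to 58.6%, with a median of 52.8%.

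Cacna1a, Kcnh1 and Kcnip1 each had 2 gene-body intervals. These 3 genes are 2.17% of the members, and 0.232% of all protein-coding genes had 2 or more. The shares were not weighted for length, and the 3 genes are 252, 319 and 364 kb long. In replicate 1, Cacna1a had 2 gene-body peaks, Kcnh1 had 0 and Kcnip1 had 1. All 6 gene-body intervals of these genes held an RE1 match, with 0 or 1 mismatch in all but the interval of Kcnip1 in replicate 2 only.

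The RE1 matches of the gene spans were then taken as the starting point, with 1 kb added on either side. Members held 16 matches without mismatch, or 0.927 per Mb, against 0.329 per Mb in other genes. Of these 16, 9 lay in a peak (56.3%, 29.9 to 80.2), against 116 of 362 in other genes (32.0%, 27.3 to 37.1). With 1 mismatch it was 14 of 108 (12.96%, 7.27 to 20.8) against 213 of 6059 (3.52%), and with 2 mismatches 13 of 1279 (1.02%, 0.542 to 1.73) against 646 of 78480 (0.823%). All 9 occupied matches without mismatch were in a replicate 2 peak and 6 were in a replicate 1 peak. With the merged peaks, the exact intervals of members and other genes overlapped for matches with 0 and with 2 mismatches and did not for those with 1. In replicate 2 alone they did not overlap for matches with 2 mismatches either (0.704%, 0.322 to 1.33, against 0.269%, 0.234 to 0.308). No test of the difference was made.

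**Figure D5:**
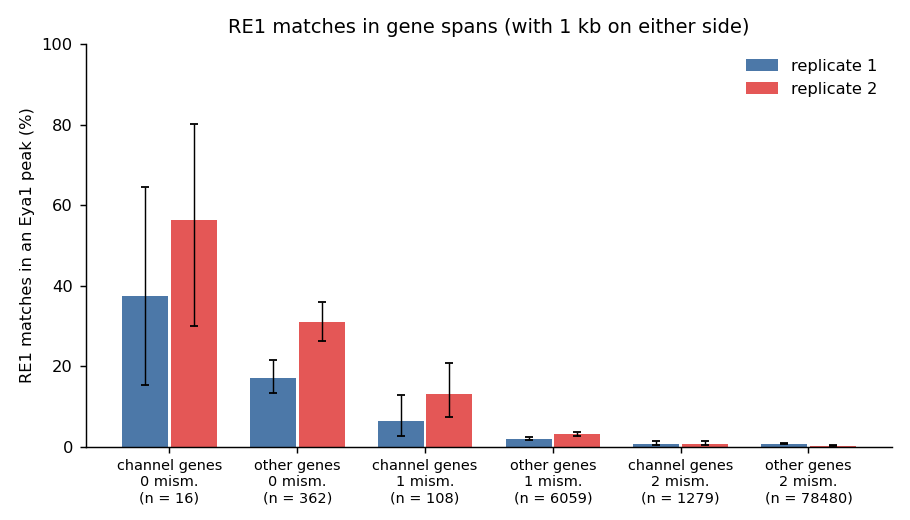
Percentage of RE1 matches in gene spans with 1 kb on either side that lay in an Eya1 peak (y axis), by number of mismatches, for ion channel genes and other protein-coding genes (x axis, with the number of matches), with bars for replicate 1 and replicate 2. Error bars are exact 95% intervals over matches. In replicate 2 the share at channel genes fell from 56.3% with 0 mismatches to 12.96% with 1 and 0.704% with 2. At other genes it fell from 30.9% to 3.09% and 0.269%.

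Of the matches without mismatch, 4 of 5 in calcium (28.4 to 99.5%) and 1 of 5 in potassium channel genes (0.505 to 71.6%) lay in a peak. These 2 intervals overlapped, and both included the 32.0% of other genes. In replicate 1 the counts were 2 of 5 and 1 of 5. Scn10a held 1 match without mismatch inside and 1 outside a peak. The 7 matches without mismatch outside a peak were in introns, among them those of Cacna1d, Kcnab2, Kcnd3, Kcnj6, Kcnn3 and Scn10a, and none of the 7 had an Eya1 interval within 5 kb. The unoccupied Scn10a match, TTCAGCACCAGGGACAG at chr9:119664301-119664317, lay 55.0 kb from the gene's start, and the occupied one, TTCAGCACCACGGACAG, 12.4 kb from it. Of the 15 members whose spans held a match without mismatch, 10 had a peak with an RE1 match (66.7%, against 38.4% of 362 protein-coding genes). Of the 52 whose best match had 1 mismatch, 14 had one (26.9% against 7.61%), and of the 59 whose best had 2 mismatches, 1 did (1.69% against 4.15%). The 12 members without any match had none, against 1 of 5500 protein-coding genes. The definition nearly fixes this last result, because the peak itself had to hold a match. Spans of members held good matches more often, with 10.9% having one without mismatch against 1.65% of all protein-coding genes. The shares of genes given here were not weighted for length. The median length was 41.98 kb for members and 17.4 kb for all protein-coding genes. Per Mb of span, members held 0.927 matches without mismatch and other genes 0.329. Whether the matches account for the members' gene-body intervals was not tested.

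Genes that work with these channels, and other cation channel genes, were counted in the same way where their symbols lay outside the rule. The background was the 23.5% of all protein-coding genes with a promoter interval and the 1.81% with a gene-body interval. Of 20 channel partners, among them ankyrins and intracellular fibroblast growth factor homologues, 0 had a promoter interval and 1 had gene-body intervals. This was Dpp6, an auxiliary subunit of transient Kv channels, with 3 replicate 2 intervals, 2 of which held a match with 1 mismatch. Of 23 other cation channel genes, 3 had a promoter interval (Itpr1 in replicate 1 only, Catsper2 and Cnga3 in both lists) and 0 had a gene-body interval, and only Cnga3 had a match, with 2 mismatches.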

How the data were processed

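Eya1 ChIP-seq was made from E13.5 mouse kidneys in 2 replicates, beside 1 input and 1 IgG sample for which no peak list was analysed. The authors deposited 1 peak list per replicate, mapped to mm10, with no count, signal or score (other values: start and end of each peak). The methods name Bowtie and MACS with cutoffs that varied and input or IgG as control, while the processing notes of the submitters name HISAT2, and which cutoff and control made each list is not given in the sources used here. The differing peak widths affect overlaps and motif counts. Read depth is unknown.

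Deposited intervals were assigned to GENCODE M21 genes in Python 3.11.15 (numpy 2.4.6, scipy 1.17.1, matplotlib 3.10.9). No peak ran past a chromosome end of GRCm38.p6, and 11 peaks of replicate 2 lay off the assembled chromosomes. The search for RE1 covered the whole interval on both strands. Flanking windows had the width of the interval. Other genes were weighted over 20 length bins. Intervals are exact Clopper-Pearson intervals at 95%, and no test was run, since genes are not replicates. On simulated windows of 200 bp with equal base frequencies, 100% of 2000 planted elements and 1% of 2000 random windows were called. The planted elements had 2 mismatches, the limit of the search, so their recovery checks the code only. The 1% is not the rate for promoter intervals of members, whose median width was 704 bp and whose flanking windows held a match in 18.8% of cases. In a further simulation, 100% of 1000 genes were assigned as planted. Members with an interval were named, with sequences for those whose match had at most 1 mismatch. Some members are counted in the totals but are not reported here by name. The members and lists were chosen with earlier results of these data known. Alternatives covered the list used, the overlap, the TSS distance, the mismatches, the window searched and the length bins.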

Additional observations from a re-analysis of the deposited data

How the results depend on the processing

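No paired analysis was possible because no result comes from a test. Of 48 alternatives to 8 results, 24 left the value within 1.5 times or within 1 SD, 24 moved it and 0 reversed its sign. Only the differences from other genes of the same lengths could change sign, since the other results are counts or shares. The SD is that of the values of the separate lists, which are themselves among the alternatives. The cause was not tested beyond what each setting removes. With 1 list left out, members with a promoter peak numbered 12 to 13, with a gene-body peak 6 to 15 and with an RE1 match in a peak 15 to 24. The lower gene-body and RE1 numbers are those without replicate 2. The RE1 share was then 94.4 to 100% of gene-body and 76.9 to 91.7% of promoter intervals. The difference from other genes of the same lengths was then -13.1 to -7.81 points at promoters and 2.49 to 7.87 points in gene bodies, and 1.64 to 2.28% of genomic matches lay in a peak against 2.57% with both lists.

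Intervals covered by both lists gave 9 members at promoters and 6 in gene bodies, and overlaps of 50% of both peaks gave 1 and 2, since the lists differ in width. With no mismatch allowed, 9 members had a match, with 33.3% of gene-body and 18.8% of promoter intervals, and 56.3% of genomic matches lay in a peak. With at most 1 mismatch these were 83.3%, 43.8% and 18.5%. A window of 200 bp on the midpoint gave 16 members, 83.3% of gene-body and 18.8% of promoter intervals. Among settings chosen after seeing the data, the same window on the peaks of replicate 1 gave 71.4% and 7.69%, on those of replicate 2 it gave 94.4% and 91.7%, and counting RE1 parts at other spacings gave 94.4% and 81.3%. The lists give no depth, so an unlisted site cannot be told from a weak one.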

Other observations

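Channel genes were also found beside intervals that lay between genes, and negative distances here mean before the start of the gene. Of 337 intervals outside every protein-coding gene and over 1 kb from every annotated TSS, 10 (2.97%) had the start of an ion channel gene as the nearest, each of a different gene. Members are 0.629% of protein-coding genes. That share is not a background for the 2.97%, since genes differ in how much intergenic sequence lies beside them, which was not measured. The distances reached -322 kb. An RE1 match was held by 7 of the 10, against 255 of the 337 (75.7%), so that the share beside members was near that of all such intervals. Kcnd3, a pore of the transient current, had a replicate 2 peak of 152 bp at -177 kb from its start with a match without mismatch, while the intronic match without mismatch in the same gene was in no peak. Kcnh2, a cardiac repolarizing channel, had a replicate 2 peak of 179 bp at -6.02 kb from its start with a match without mismatch. The interval at -22.4 kb from the start of Kcnk9, a two-pore channel, was in both lists and held 3 matches, the best without mismatch. Cacna1i, a T-type pore, had an interval in both lists at -9.56 kb from its start, and Cacna2d2, Cacng4 and Kcna3 had intervals in replicate 2 only, each with a match of 1 mismatch. The intervals nearest to Cacng5, Kcnab2 and Kcnj6 held no match. The nearest gene is a description of position, and no link between these intervals and the genes was tested.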
